A study of Mus musculus with 18 samples.

Results

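The genes described here encode neuropeptide precursors and the proteins that cut, trim, amidate and store the peptides, with Pam, the amidating enzyme, among them. The compared mice were of the inbred strains C57BL/6J and DBA/2J, and RNA of whole brain is set here against that of kidney and liver. Members were taken by gene symbol from a list of 35 genes, and 30 of them were on the array, of 15095 named genes in all. They comprised 21 peptide precursors, 5 processing proteins and 4 granins, and each was measured by 1 spot. Crh, Grp, Agrp, Pcsk2 and Vgf were not analysed here.

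The study used 18 glass arrays, 6 for each tissue. On every array a pool of DBA/2J total RNA, from 10 mice for brain and kidney and 9 for liver, was hybridised together with a C57BL/6J pool of the same tissue and size. Hybridisations of a tissue repeated 1 pair of pools, so the p-values measure the spread between hybridisations and not between mice. The strain was the only contrast within an array, no treatment was named, and the labels name neither age nor sex. The labels give no dye swap. Within a tissue, an effect of the dye on a spot and an effect of the strain therefore cannot be told apart. A dye effect shared by the tissues cancels in a difference between them.

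Neuropeptides are made as larger precursors that enter the secretory granules of neurons and endocrine cells. Prohormone convertases cut the precursors at basic residues, carboxypeptidase E removes those residues, and Pam converts a C-terminal glycine into the amide that many peptides need to bind their receptors. Granins are acidic proteins that help to form the granules, and some of them are themselves precursors of peptides.

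Many neuropeptide genes are known to respond to cyclic AMP through the element TGACGTCA, first described in the somatostatin promoter. Promoters are shown here for the 3 members whose brain ratios passed the test under every alternative, and beside them for 2 members that hold the element. The sequences are the 180 bases before each RefSeq transcript start in GRCm38.p6, which is the C57BL/6J reference, written 5′ to 3′ along the gene's strand. DBA/2J sequence was not used here. They lie at chr1:98095647-98095826 (minus strand) for Pam, chr2:113829092-113829271 (minus) for Scg5, chr10:5639038-5639217 (plus) for Vip, chr16:23890845-23891024 (minus) for Sst and chr13:75089677-75089856 (plus) for Pcsk1. Capitals mark the whole element in Sst and Pcsk1 and its 5-base core TGACG in Vip and Scg5, and Pam has no capitals.
Pam: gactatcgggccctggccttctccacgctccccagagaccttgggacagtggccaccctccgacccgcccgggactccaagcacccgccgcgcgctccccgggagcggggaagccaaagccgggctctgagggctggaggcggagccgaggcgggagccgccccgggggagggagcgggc
Scg5: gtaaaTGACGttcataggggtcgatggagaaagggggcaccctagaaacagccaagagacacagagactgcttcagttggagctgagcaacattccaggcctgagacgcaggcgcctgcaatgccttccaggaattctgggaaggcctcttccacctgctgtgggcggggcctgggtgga
Vip: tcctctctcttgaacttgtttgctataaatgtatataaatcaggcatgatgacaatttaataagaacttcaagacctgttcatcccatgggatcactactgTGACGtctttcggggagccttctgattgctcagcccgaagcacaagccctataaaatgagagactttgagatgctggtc
Sst: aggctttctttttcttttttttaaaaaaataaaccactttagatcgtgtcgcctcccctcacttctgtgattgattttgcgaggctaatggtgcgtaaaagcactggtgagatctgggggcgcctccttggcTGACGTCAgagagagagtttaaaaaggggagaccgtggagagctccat
Pcsk1: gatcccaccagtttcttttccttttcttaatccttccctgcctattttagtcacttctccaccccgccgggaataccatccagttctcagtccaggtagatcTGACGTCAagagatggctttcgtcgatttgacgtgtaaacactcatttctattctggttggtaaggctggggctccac
The search covered both strands of the 300 bases from 250 before to 50 after each start, for TGACGTCA and for the core TGACG or its complement CGTCA, which every whole element also contains. Of the 28 members with a promoter in the RefSeq table, 5 (17.9%) held the whole element, against 549 of 27025 genes (2.03%). These were Sst, Cartpt, Pcsk1, Scg2 and Chgb. The core was held by 17 members (60.7%), against 23.1% of all genes. Penk and Cpe had no entry. A match describes the letters of the window and is not a site of binding.

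The genes with the element did not share a strain ratio. In brain none of the 5 passed the threshold (limma), none had an unadjusted p under 0.05, and their log2 ratios ranged from -0.11 to 0.22 with a median of 0.17. In kidney Sst and Chgb were higher, Pcsk1 and Cartpt were lower, and Scg2 stood at -0.11 without passing. The kidney calls of Sst, Chgb and Cartpt each ended under some alternatives, as given below. In liver none passed, 1 had an unadjusted p under 0.05, and the range was -0.18 to 0.18. Over all features 13.8% passed in brain, 37.4% in kidney and 23.1% in liver, and a list of 5 genes moves in large steps.

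Ratios are given on the log2 scale as DBA/2J over C57BL/6J, with positive values for more RNA in DBA/2J. The labels do not state this direction, which is the likely one from the order in which they name the dyes. Under it Glo1, of which DBA/2J carries a duplication, had ratios of 0.62 (brain), 0.83 (kidney) and 0.91 (liver), and Hc, defective in DBA/2J, stood at -1.08 in liver. The deposited ratios were not centred, with array medians from -1.65 to 0.16, and were normalised again. Afterwards arrays of a tissue correlated with each other across spots by a mean of 0.384 for brain, 0.614 for kidney and 0.475 for liver. The tissue labels were checked against markers by the percentile of spot intensity among all features of a tissue. The 15 brain markers had median percentiles of 94.1 (brain), 28.5 (kidney) and 50.7 (liver). The 9 kidney markers stood at 65.3, 98.8 and 51.2 in the same order, and the 14 liver markers at 36.1, 35.6 and 99.4. Of these lists 14 brain, 7 kidney and 14 liver markers were brightest in their own tissue. Single markers departed, such as Aqp2 at 99.5 in liver and 87.7 in kidney, and Camk2a at 6.50 in brain.

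In brain, 8 of the 30 members passed the threshold (limma, Benjamini-Hochberg adjusted p under 0.05 over all 20218 features), 7 of them higher and 1 lower in DBA/2J. Among all features 13.8% passed in brain, 7.51% as higher and 6.34% as lower. Pam, Scg5, Vip, Avp, Pmch, Pdyn and Adcyap1 were higher, and Nts was lower. Of these, Pam, Scg5, Vip and Nts also reached 1.5-fold, as did 1.74% of all features. The median log2 ratio of the members was 0.09, against 0.0041 for all features, while their median size without sign was 0.13 against 0.12. Pam, Scg5 and Vip passed under every processing alternative and without any single array. The other 5 calls each ended without at least 1 array, and without replicate 5 only 3 members passed. In whole tissue, a change in the number of cells of a type and a change in RNA per cell cannot be told apart.

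**Figure D1:**
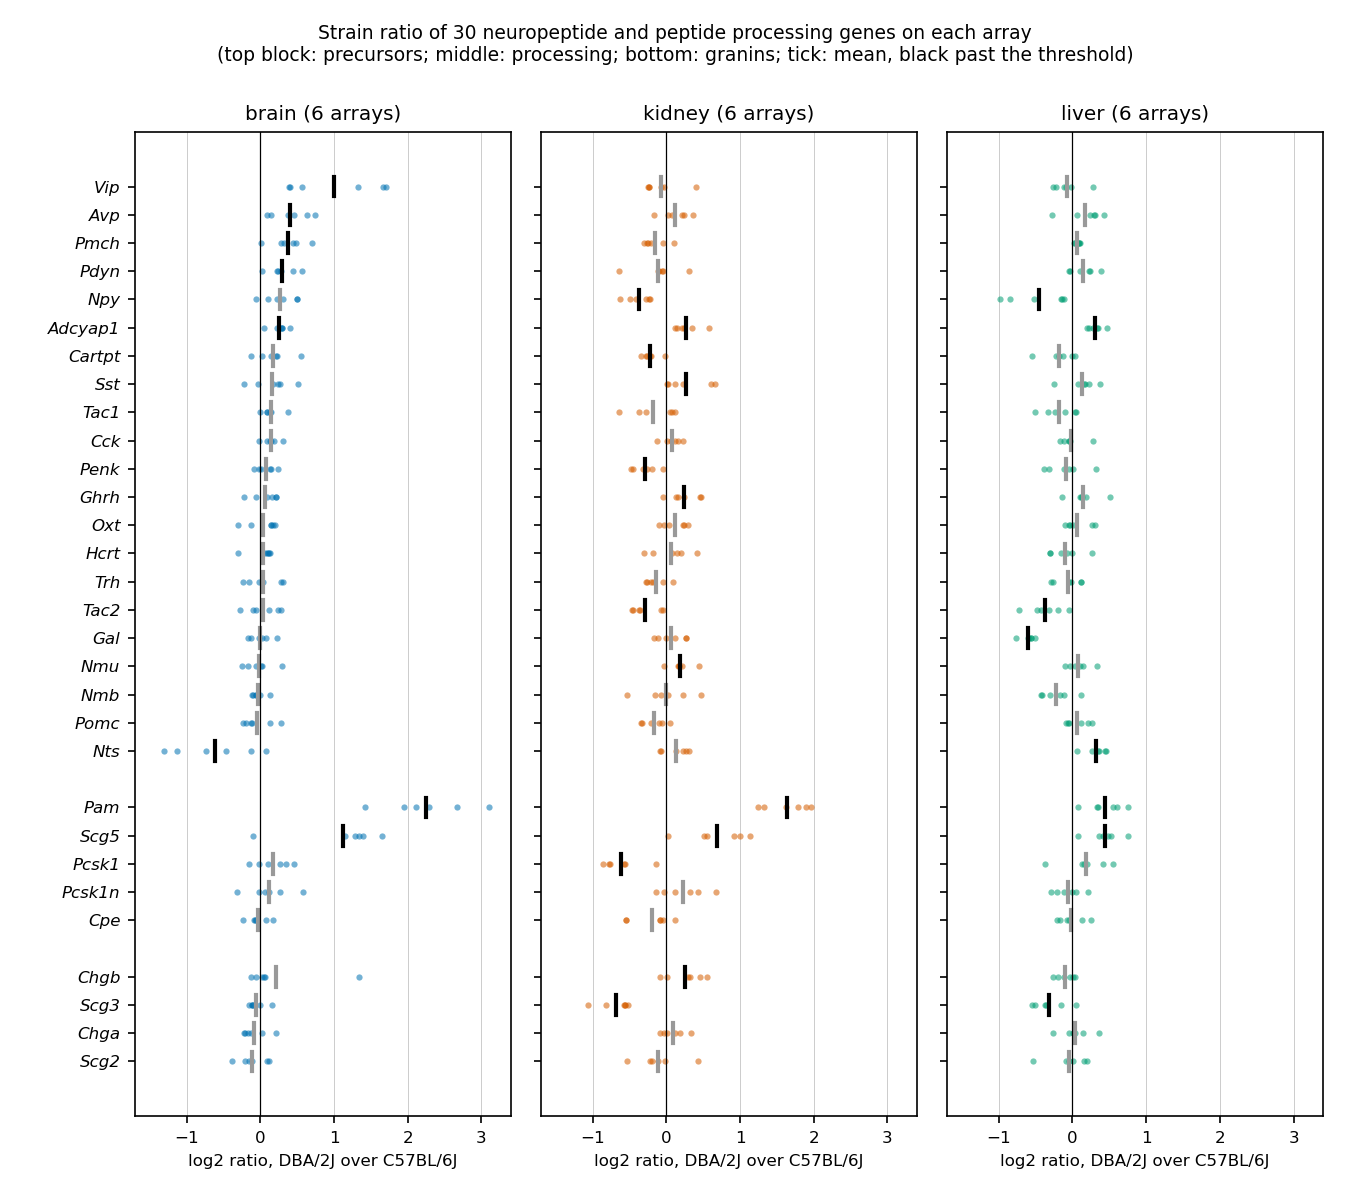
Log2 ratio of DBA/2J over C57BL/6J (horizontal axis) for each of the 30 genes (rows) on each of 6 arrays (points) in brain, kidney and liver. The tick is the mean over 6 arrays, black where the gene passed the threshold and grey where it did not. Pam lies at 1.41 or above on every brain array, and most other members lie between -0.5 and 0.5.

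In kidney 13 members passed, 7 higher and 6 lower, a share of 43.3% against 37.4% of all features, of which 18.8% were higher and 18.6% lower. In liver 8 passed, 4 each way, or 26.7% against 23.1% of all features, with 11% higher and 12.1% lower. At 1.5-fold the kidney had 4 members (Pam, Scg5, Pcsk1 and Scg3), against 3.76% of all features, and the liver had 1 (Gal), against 2.4%. The median ratio of the members was 0.03 for kidney and -0.02 for liver. By tissue, 3 members passed in all 3 tissues (Pam, Scg5 and Adcyap1), 4 in 2 tissues, 12 in 1 and 11 in none. The same overlap was not counted over all features, so these counts do not show whether members differ from other genes. Cck, Tac1, Pomc, Oxt, Hcrt, Trh, Nmb, Cpe, Pcsk1n, Scg2 and Chga were the 11 that passed in none.

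Among the processing proteins, Pam had the largest strain ratio of the members in brain and in kidney. By size without sign, which does not depend on the direction, its brain ratio ranked 4th of all 20218 features. On the 6 brain arrays it ran from 1.41 through a median of 2.20 to 3.11. All arrays were far above 0, yet they spread over more than 1 log2 unit. The mean was 2.25 ± 0.59 (SD, n = 6), or 4.77-fold higher in DBA/2J (adjusted p = 1.55e-05). In kidney Pam ran from 1.25 through 1.71 to 1.96, and again no array was near 0. Its kidney mean was 1.64 ± 0.30, or 3.12-fold (adjusted p = 7.16e-08), 28th of all features by size. In liver it ran from 0.08 through 0.45 to 0.75, so that the arrays lay above 0 but below every kidney array. The liver mean was 0.45 ± 0.24, or 1.36-fold (adjusted p = 0.00384). The Pam spot lay at percentile 56.8 of spot intensity in brain and 63.5 in kidney, but at 1.12 in liver, among the dimmest spots of that tissue.

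Scg5, which encodes 7B2, the chaperone of prohormone convertase 2, was the other processing protein that was higher in all 3 tissues. In brain it ran from -0.09 through 1.31 to 1.65. Replicate 1 gave the lowest value and stood alone, since the other 5 arrays lay between 1.14 and 1.65. The mean was 1.12 ± 0.62, or 2.17-fold (adjusted p = 0.00220), and 1.36 without replicate 1. In kidney Scg5 ran from 0.02 through 0.74 to 1.13, with a mean of 0.69 ± 0.41 (1.62-fold, adjusted p = 5.55e-04). With the arrays centred but without loess, the kidney value was 0.24 and did not pass (adjusted p = 0.0780). In liver it ran from 0.07 through 0.45 to 0.76, with a mean of 0.44 ± 0.22 (1.36-fold, adjusted p = 0.00360). The spot was bright in brain (percentile 97.0) and dim in kidney (15.7), and in liver it was among the dimmest of all.

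Pcsk1, the convertase PC1/3 that makes the first cuts in many precursors, went the other way in kidney. Its kidney arrays ran from -0.86 through -0.67 to -0.14, all below 0. The mean was -0.61 ± 0.26, or 1.53-fold lower in DBA/2J (adjusted p = 1.48e-04). In brain it ran from -0.15 to 0.45 (mean 0.17 ± 0.23) and in liver from -0.38 to 0.55 (0.18 ± 0.32), and neither passed. Pcsk1n, whose product proSAAS inhibits that convertase, had means of 0.12 (brain), 0.23 (kidney) and -0.06 (liver), none past the threshold. Cpe, the carboxypeptidase that follows the convertases, stood at -0.03, -0.20 and -0.02, also without passing. Of 5 processing proteins, then, 2 were higher in brain, 2 were higher and 1 lower in kidney, and 2 were higher in liver. The higher ones were Pam and Scg5 each time. Over all features 7.51% (brain), 18.8% (kidney) and 11% (liver) were higher, and 6.34%, 18.6% and 12.1% were lower.

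**Figure D2:**
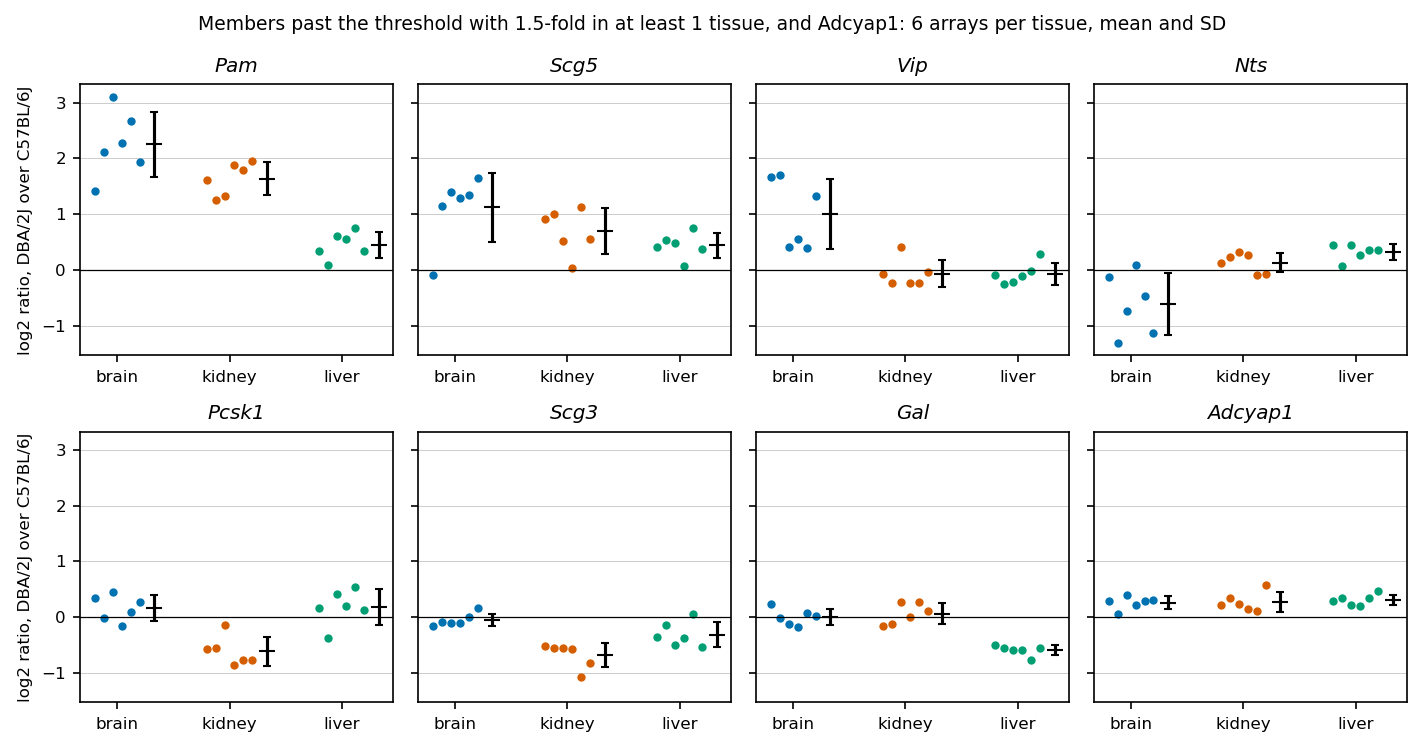
Log2 ratio of DBA/2J over C57BL/6J (vertical axis) on 6 arrays of brain, kidney and liver for the 7 members that passed the threshold with 1.5-fold in a tissue and for Adcyap1. Points are arrays and bars are the mean and SD. Pam is above 0 on every array of every tissue, Vip departs from 0 in brain, Pcsk1 is below 0 in kidney, and Adcyap1 is at a like height in all 3 tissues.

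None of the 4 granins passed in brain (limma), and none had an unadjusted p under 0.05. In kidney 2 passed and in liver 1. Over all features 13.8% (brain), 37.4% (kidney) and 23.1% (liver) passed, and a list of 4 genes moves in large steps. Scg3, which tethers chromogranin A to the granule membrane, ran from -0.16 to 0.16 in brain, with a mean of -0.05 ± 0.12. In kidney it ran from -1.07 through -0.57 to -0.52, so that every array was lower in DBA/2J. The kidney mean was -0.68 ± 0.22 (1.61-fold lower, adjusted p = 3.25e-05). In liver Scg3 was lower by -0.31 ± 0.23 (adjusted p = 0.0192), a call that ended without replicate 1, 3, 4 or 6. The Scg3 spot was bright in brain (percentile 95.2) and dim in kidney (9.69) and liver (17.0). Chgb, chromogranin B, had 5 brain arrays between -0.12 and 0.07 and replicate 6 at 1.33, which put the brain mean at 0.22 ± 0.55 without a call and at -0.0065 without that array. In kidney Chgb was higher by 0.26 ± 0.25 (adjusted p = 0.0300), and the call ended without replicate 2, 3, 4 or 5, with whole-array loess and in 1 fit of all arrays. Scg2, secretogranin II, stood at -0.11 in brain, -0.11 in kidney and -0.05 in liver, and Chga, chromogranin A, at -0.08, 0.09 and 0.04, without a call.

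Among the precursors of forebrain interneurons and striatal neurons, Vip had the largest ratio in brain, 36th of all features by size without sign. The vasoactive intestinal peptide that it encodes is made by a class of cortical interneurons and by the circadian clock of the hypothalamus. On the brain arrays Vip ran from 0.39 through 0.94 to 1.71. The arrays fell into 3 high values (replicates 1, 2 and 6, from 1.32 up) and 3 low ones (replicates 3, 4 and 5, up to 0.56), all above 0. The mean was 1.01 ± 0.63, or 2.01-fold (adjusted p = 0.00439), and between 0.87 and 1.13 when any 1 array was left out. In kidney and liver the means were -0.07 ± 0.25 and -0.07 ± 0.19, with arrays on both sides of 0. The spot was brighter in brain (percentile 70.2) than in kidney (30.2) or liver (24.8). Of 9 markers of GABAergic neurons none was higher and 1 was lower in brain, with ratios from -0.32 (Dlx1) to 0.12 (Dlx5). That share of 11.1% compares with 13.8% of all features. The part of GABAergic neurons in the Vip ratio was not tested.

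The other 7 precursors of that set had smaller ratios in brain. Pdyn, the precursor of dynorphins, ran from 0.03 through 0.26 to 0.56 there and was higher by 0.30 ± 0.19 (adjusted p = 0.0307). That call ended without replicate 2, 3, 5 or 6 (adjusted p up to 0.0957), without loess, with whole-array loess and with intensities left unrestored. Npy, whose peptide is made by inhibitory neurons and stimulates feeding, stood at 0.26 ± 0.22 in brain and did not pass (adjusted p = 0.0606). It was lower in kidney, by -0.38 ± 0.16 (adjusted p = 0.00120), with all 6 arrays below 0, though not without loess or with whole-array loess. It was also lower in liver, by -0.46 ± 0.38 (adjusted p = 0.0159), where replicates 1, 2 and 4 lay between -0.98 and -0.52 and the other arrays between -0.16 and -0.11, and where the call ended without replicate 1 or 4. Tac2, the precursor of neurokinin B, was lower in kidney (-0.29 ± 0.19, adjusted p = 0.00787) and in liver (-0.37 ± 0.23, adjusted p = 0.0100), and stood at 0.03 in brain. The kidney call of Tac2 ended with whole-array loess and unrestored intensities, and its value turned to 0.12 without loess.

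Penk, the enkephalin precursor, was lower in kidney by -0.29 ± 0.16 (adjusted p = 0.00667, a call that ended without loess) and stood at 0.07 ± 0.12 in brain. Sst, somatostatin, was higher in kidney by 0.27 ± 0.29 (adjusted p = 0.0335), where its arrays fell into 2 values above 0.6 and 4 from 0.01 to 0.23. Without replicate 1, 4 or 5, with whole-array loess and with unrestored intensities the kidney call for Sst ended. In brain Sst stood at 0.15 ± 0.25, Cck, whose peptide marks another class of interneurons, at 0.14 ± 0.10, and Tac1, the precursor of substance P, at 0.14 ± 0.13, none past the threshold. Cck and Tac1 did not pass in kidney or liver either.

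Of the 9 hypothalamic precursors, Avp and Pmch were higher in brain and the other 7 did not pass there. That share of 22.2% compares with 13.8% of all features, and a list of 9 genes moves in large steps. Avp, vasopressin, ran from 0.09 through 0.42 to 0.75, so that all 6 arrays were above 0. Its mean was 0.41 ± 0.26 (1.33-fold, adjusted p = 0.0150), and it ended as a call without replicate 5 and when loess was run over the whole array or left out. Pmch, the precursor of melanin-concentrating hormone, ran from 0.02 through 0.38 to 0.70, with a mean of 0.37 ± 0.23 (1.29-fold, adjusted p = 0.0168). That call ended without replicate 5 or 6, with whole-array loess and with intensities left unrestored. Oxt, oxytocin, stood at 0.04 ± 0.20, Pomc at -0.05 ± 0.20, Hcrt, the orexin precursor, at 0.04 ± 0.17, Trh at 0.03 ± 0.23 and Ghrh at 0.06 ± 0.17. Replicate 2 of Hcrt lay at -0.31, apart from the other 5 arrays between 0.07 and 0.13.

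Of 10 hypothalamic marker genes in brain, Otp was higher (0.46), Hmx2 (-2.26) and Lhx1 (-0.42) were lower, and 7 did not pass. None of 8 pituitary markers passed in brain (limma), and 4 had an unadjusted p under 0.05 with ratios between -0.21 and 0.27. Over all features 13.8% passed in brain, and lists of 8 or 10 genes move in large steps. The part of the dissection in these ratios was not tested.

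Outside brain, Gal was the hypothalamic precursor with the largest ratio. Galanin RNA on the liver arrays ran from -0.77 through -0.58 to -0.51, the narrowest range among members past 1.5-fold. Its liver mean was -0.60 ± 0.09, or 1.51-fold lower in DBA/2J (adjusted p = 8.55e-05). In brain it was 0.0004 ± 0.15 and in kidney 0.06 ± 0.19. The Gal spot was bright in all 3 tissues, at percentiles 87.6, 92.5 and 93.3. Cartpt, the precursor of a satiety peptide, was lower in kidney by -0.22 ± 0.11 (adjusted p = 0.0166), from a dim spot (percentile 7.94), and the call ended without replicate 4 and with whole-array loess. Ghrh, which releases growth hormone, was higher in kidney by 0.23 ± 0.20 (adjusted p = 0.0288), and the call ended without replicate 1, 3 or 5 and with intensities left unrestored.

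Adcyap1, Nts, Nmb and Nmu complete the precursors. Adcyap1 encodes PACAP, a relative of vasoactive intestinal peptide, and was higher in all 3 tissues by nearly the same amount. In brain it ran from 0.05 through 0.29 to 0.40, in kidney from 0.11 through 0.23 to 0.58, and in liver from 0.19 through 0.31 to 0.47. No array of any tissue fell below 0. The means were 0.26 ± 0.12 (adjusted p = 0.0323), 0.27 ± 0.17 (adjusted p = 0.0102) and 0.31 ± 0.10 (adjusted p = 0.00596). The brain call ended without replicate 3, 4, 5 or 6, and the kidney call ended with whole-array loess and unrestored intensities and turned to -0.21 without loess.

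Nts, neurotensin, was the member that passed in opposite directions. Its brain arrays ran from -1.31 through -0.60 to 0.08. Replicates 2 and 6 were below -1, while replicates 1 and 4 were near 0. The brain mean was -0.62 ± 0.55 (1.53-fold lower, adjusted p = 0.0237). Without replicate 2, 3, 5 or 6 the call ended, with means from -0.64 to -0.48, as it did without loess and with intensities left unrestored. In liver Nts ran from 0.06 through 0.36 to 0.45, and its mean of 0.32 ± 0.15 was higher in DBA/2J (adjusted p = 0.00729), a call that ended without loess, with whole-array loess and in 1 fit of all arrays. Kidney stood at 0.13 ± 0.18 without passing. The Nts spot was bright in all tissues (percentiles 95.3, 98.1 and 95.9). Nmu, neuromedin U, was higher in kidney by 0.19 ± 0.15 (adjusted p = 0.0484), close to the threshold, and the call ended without any 1 of replicates 1, 3, 4, 5 and 6. Nmb, neuromedin B, stood at -0.03, -0.0090 and -0.22 in brain, kidney and liver, with no call.

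The differences between tissues asked whether a strain ratio in brain departed from that in kidney or liver. Between brain and kidney 10 members differed, 9 with the higher ratio in brain, a share of 33.3% against 20.1% of all features (10.7% higher and 9.46% lower in brain). At 1.5-fold 6 of them remained past the threshold, against 4.48% of all features. Between brain and liver 6 differed, 5 higher and 1 lower in brain, while 7.41% of all features did (4.21% higher and 3.21% lower), and 5 members reached 1.5-fold against 2.44%. Both comparisons use the same brain arrays. Vip differed by 1.07 (SE 0.20, adjusted p = 5.18e-04) from kidney and by 1.08 (SE 0.20, adjusted p = 8.18e-04) from liver. Npy differed by 0.64 (SE 0.14) and 0.72 (SE 0.14), its brain ratio being above 0 and the other ratios below. Nts differed the other way, by -0.74 (SE 0.17) and -0.94 (SE 0.17), and both calls ended with intensities left unrestored, the second also without loess.

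Pam had a higher strain ratio in brain than in liver, by 1.81 (SE 0.20, adjusted p = 1.44e-06), and in kidney than in liver, by 1.19 (SE 0.20, adjusted p = 1.35e-04). Its brain and kidney ratios differed by 0.61 (SE 0.20, adjusted p = 0.0284), a call that ended without brain replicate 3 or 5 and without kidney replicate 2 or 3 (0.44 to 0.55), and with intensities left unrestored. The Pam spot was near the bottom of the intensity range in liver, as given above, and the part of dim signal in the liver ratio was not tested. Scg5 did not pass in any pair of tissues. It differed by 0.43 (SE 0.21, adjusted p = 0.160) between brain and kidney and by 0.68 (SE 0.21, adjusted p = 0.0519) between brain and liver. Pcsk1 had a lower strain ratio in kidney than in brain, by 0.78 (SE 0.14), and than in liver, by 0.79 (SE 0.14). Scg3 had a brain ratio 0.63 (SE 0.11) above that of kidney. Its kidney ratio was 0.37 (SE 0.11) below that of liver, a call that ended without kidney replicate 5 or 6 or liver replicate 2 or 5.

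The strain ratio of Gal differed from that in liver by 0.60 (SE 0.10) in brain and by 0.66 (SE 0.10) in kidney. Between kidney and liver 4 members differed (Gal, Pam, Pcsk1 and Scg3), 2 each way, or 13.3% against 15.7% of all features (8.92% higher and 6.78% lower in kidney). Of these, Gal, Pam and Pcsk1 reached 1.5-fold, against 4.42% of all features. Pmch (0.53, SE 0.10), Pdyn (0.40, SE 0.13), Cartpt (0.39, SE 0.11) and Penk (0.36, SE 0.11) also had higher ratios in brain than in kidney, and Tac2 (0.40, SE 0.12) than in liver. Of these calls only that of Pmch held under every alternative run. That of Penk ended without kidney replicate 1 or 6, that of Pdyn without brain replicate 3 or 5 or kidney replicate 1 and with intensities left unrestored, and that of Cartpt with whole-array loess. The Tac2 call ended without any 1 of brain replicates 1, 2, 4 and 5 or liver replicates 1, 2, 5 and 6, without loess, with whole-array loess and with intensities left unrestored. The Adcyap1 ratios differed by -0.02 (SE 0.09) between brain and kidney and by -0.05 (SE 0.09) between brain and liver. Without loess the brain and kidney ratios of Adcyap1 differed by 0.60.

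**Figure D3:**
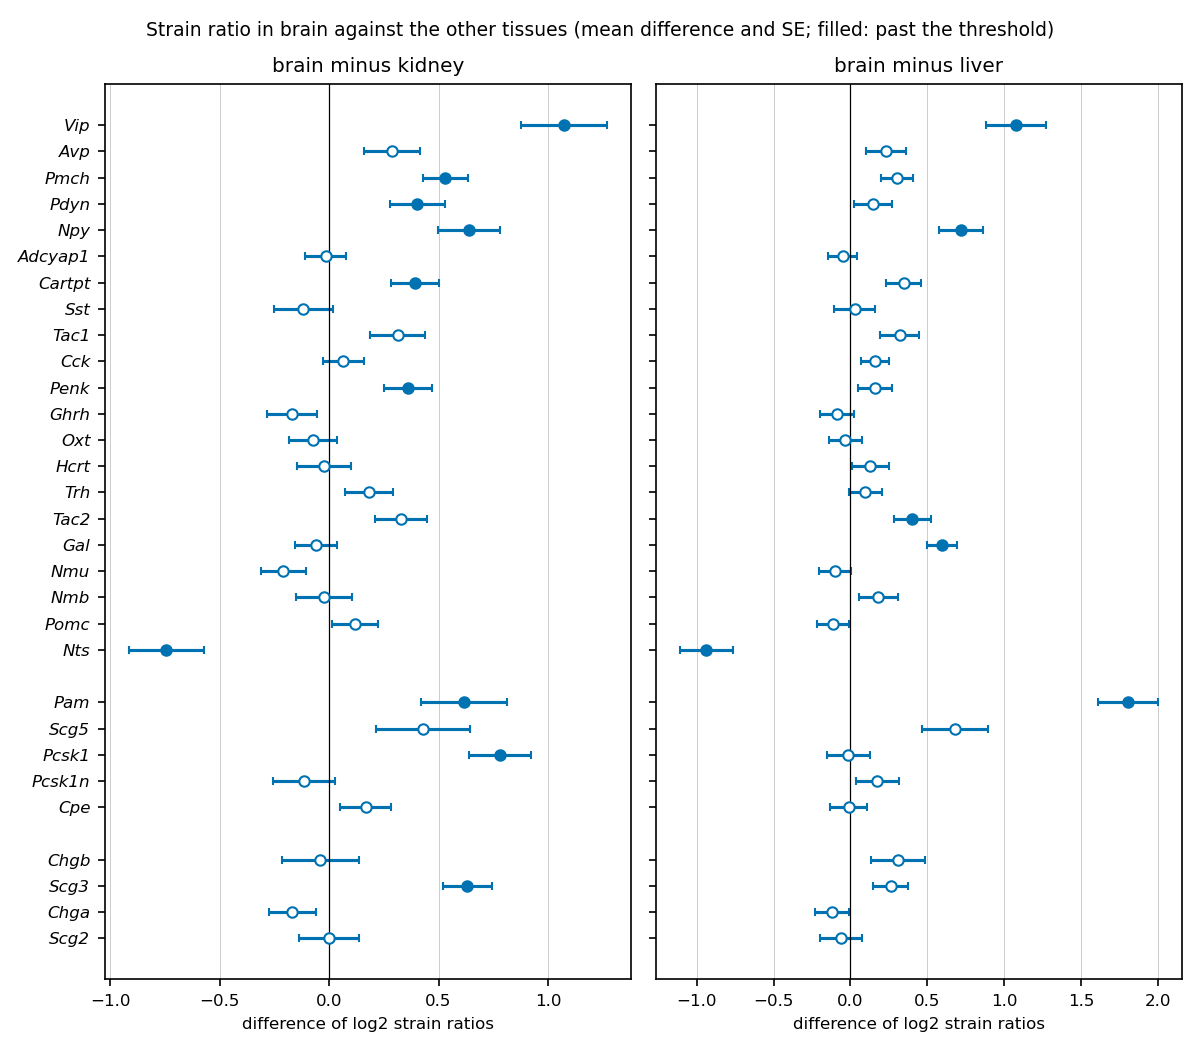
Difference of the mean log2 strain ratio between brain and kidney (left) and between brain and liver (right) for the 30 genes, with 6 arrays in each tissue. Points are differences, bars are SE, and filled points passed the threshold. Vip and Pam stand on the right of 0 and Nts on the left in both panels, which share the brain arrays.

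Spot intensity was compared between tissues for each member, since intensities of different spots cannot be set against each other and no background level was at hand to call a spot undetected. Of 30 members, 24 had their highest percentile in brain (80.0%), against 38.9% of the 15095 named genes. Members had median percentiles of 89.3 (brain), 64.0 (kidney) and 56.8 (liver). The spots of Scg3, Cartpt, Scg5 and Adcyap1 lay above the 80th percentile in brain and below the 25th in kidney and liver. Cck, Oxt, Gal, Nts, Ghrh, Nmb, Cpe, Chga and Chgb instead lay above the 85th percentile in all 3 tissues. No member lay below the 25th percentile in brain, while 7 did in kidney and 10 in liver. The kidney and liver ratios of Scg5, Scg3, Adcyap1, Cartpt, Pmch, Trh and Nmu, and the liver ratios of Pam, Vip and Pomc, come from such dim spots.

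**Figure D4:**
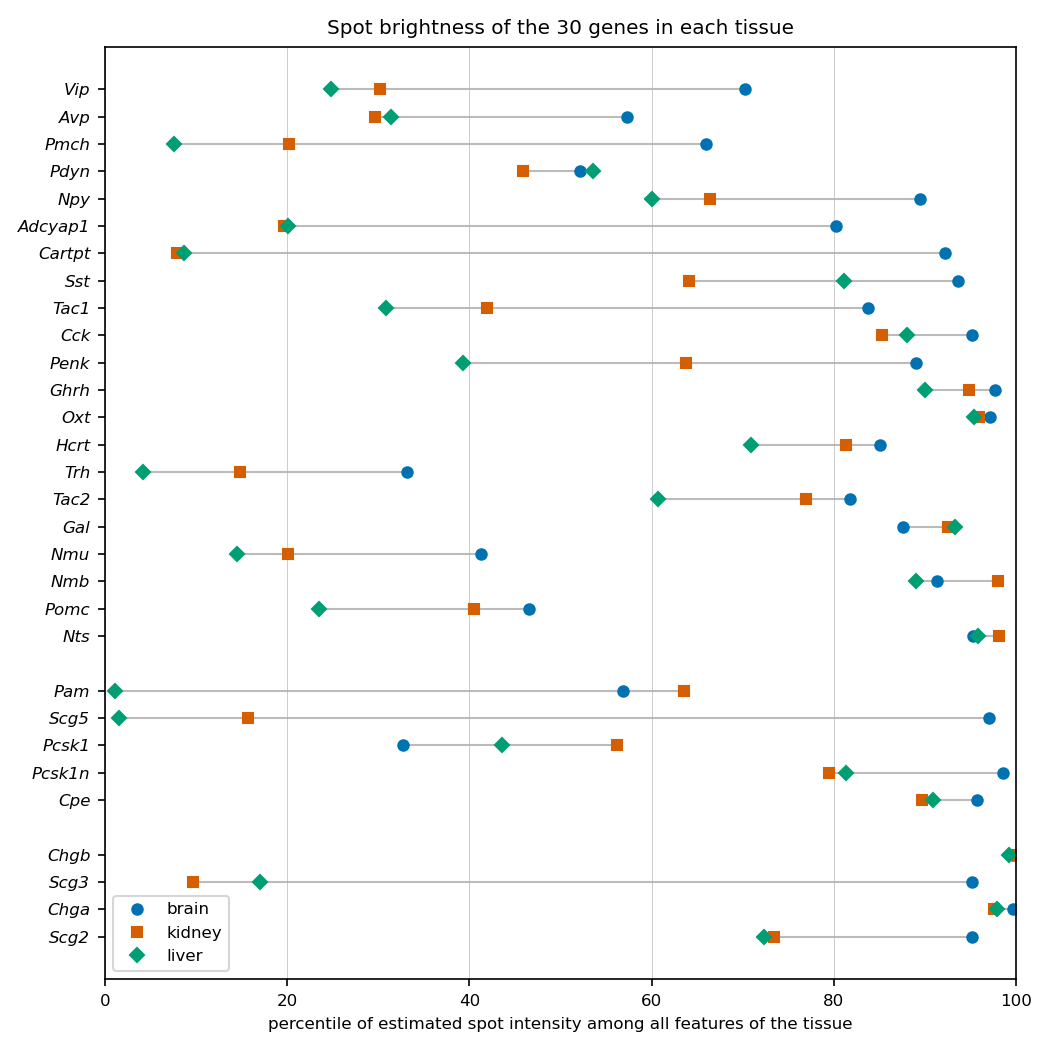
Percentile of estimated spot intensity among all features of the tissue (horizontal axis) for the 30 genes (rows) in brain, kidney and liver. Circles, squares and diamonds are the tissues, and brain is rightmost for 24 genes.

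The other lists of the pathway held no gene past the threshold with 1.5-fold in brain, where 1.74% of all features were. Of 47 neuropeptide receptor genes, 1 was higher and 4 were lower in brain. In kidney 3 were higher and 14 lower, and in liver 4 and 9. Those shares of 10.6%, 36.2% and 27.7% compare with 13.8%, 37.4% and 23.1% of all features. Vipr1, a receptor for both vasoactive intestinal peptide and PACAP, was lower in brain (-0.33) and kidney (-0.42). Its spot was dim in both (percentile 10.5 in brain), and Vipr2 (-0.04) and Adcyap1r1 (0.0071) did not pass in brain. The neurotensin receptor Ntsr2 was lower in brain (-0.31), while Ntsr1 (0.08) did not pass there. The other receptors lower in brain were Mc3r (-0.24) and Crhr2 (-0.25). Cckbr, a cholecystokinin receptor, was the 1 higher in brain (0.30). Of 34 other peptide precursors, 2 were higher and 5 lower in brain. In kidney 10 were higher and 10 lower, and in liver 3 and 8, or 20.6%, 58.8% and 32.4% against the same shares of all features. Of 30 other processing and degrading enzymes, 2 were higher and 4 lower in brain, with 5 and 7 for kidney and 3 and 6 for liver. In all 6, 12 and 9 of the 30 passed, where the shares of all features are 13.8%, 37.4% and 23.1%. None of 9 partners of Pam and proteins of its copper supply passed in brain (limma), where 4 had an unadjusted p under 0.05. In kidney the copper pump Atp7a (0.52) and Uhmk1 (0.24), a kinase that binds Pam, were higher. None of 26 proteins of regulated secretory granules passed in brain (limma), with 6 at an unadjusted p under 0.05 and a median of -0.07, while 5 were higher and 4 lower in kidney.

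Of these lists, 5 genes passed the threshold with 1.5-fold and the same sign on all 6 arrays, none of them in brain. Over all features 1.74% (brain), 3.76% (kidney) and 2.4% (liver) passed with 1.5-fold, without the demand for 1 sign. In kidney Nppb, a natriuretic peptide precursor, was lower by -0.80 ± 0.40, Prok2, prokineticin 2, by -0.69 ± 0.33, and Mbtps1, the site-1 protease of the Golgi, by -0.96 ± 0.37. In liver Cort, a somatostatin relative, was lower by -0.86 ± 0.22. Npvf, the precursor of RFamide-related peptides, was higher in liver by 0.71 ± 0.37, from a dim spot.

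**Figure D5:**
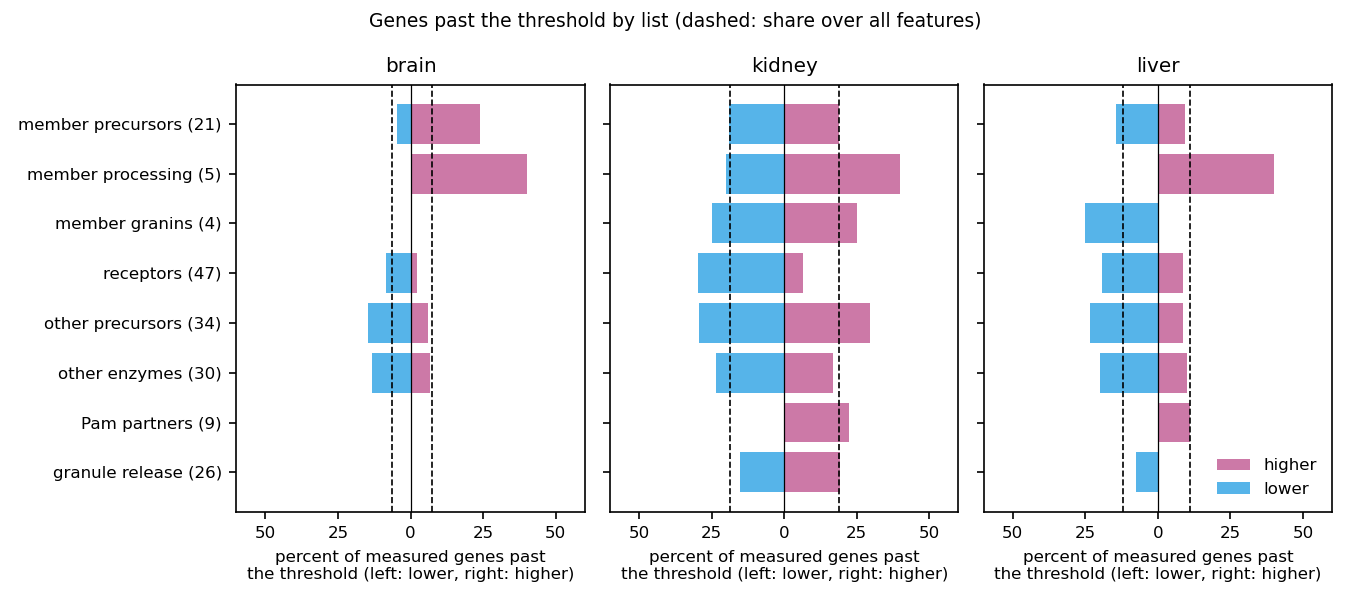
Percent of the measured genes of each list (number in brackets) that were higher (right) or lower (left) in DBA/2J past the threshold in brain, kidney and liver. Dashed lines are the same shares over all 20218 features, and the lists of 4 to 9 genes move in large steps. In brain the bars of the member precursors and processing proteins extend past the dashed line on the higher side.

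The genes beside the members with 1.5-fold ratios were read as well, 3 measured named genes on each side in the order of the RefSeq gene table. Over all features 13.8% passed in brain, 37.4% in kidney and 23.1% in liver, and sets of 6 neighbours move in large steps. None of the 6 neighbours of Pam passed in brain, where their ratios ran from -0.04 to 0.22, and none passed in liver (limma). Gin1 had an unadjusted p under 0.05 in both. In kidney Gin1, next to Pam, was higher by 0.23 (adjusted p = 0.0134). None of the 6 neighbours of Vip passed in brain, with Myct1 at 0.49 and an adjusted p of 0.0715. Outside brain Syne1 was lower in kidney (-0.41), and in liver Myct1 was higher (0.45) and Rgs17 lower (-0.26). Of the neighbours of Scg5, Actc1 was lower in brain (-0.32), opposite to Scg5, Grem1 was higher in kidney (0.31), and Aqr was lower in kidney (-0.30) and liver (-0.26). Beside Pcsk1, which was lower in kidney, Glrx (0.68) and Ell2 (0.44) were higher there and Cast (-0.28) and Zfp825 (-0.40) were lower. Erap1 was lower in liver (-0.29). Beside Gal, Ighmbp2 was lower in liver (-0.23), as Gal was. In kidney Cpt1a (0.37) was higher and Ppp6r3 (-0.33) and 1810055G02Rik (-0.41) were lower. Beside Nts, 1700017N19Rik (-0.51) and Ccdc59 (-0.37) were lower in kidney and Tmtc2 (0.25) was higher in liver. Beside Scg3, Tmod2 was higher in brain (0.34), Lysmd2 in kidney (0.23), and Tmod3 (0.25) and Hcrtr2 (0.24) in liver. Glrx was the only neighbour of the 7 members that reached 1.5-fold in any tissue. Over all features 1.74% (brain), 3.76% (kidney) and 2.4% (liver) passed with 1.5-fold.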

How the data were processed

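Quantification by the authors used Spot, and their normalisation print-tip lowess in limma, per the labels. The deposited log2 ratios of the 2 channels were nevertheless log2 of ratios of whole numbers for 100% of the 21765 spots used (tolerance 1e-12) and uncentred, and were treated as raw, which departs from the planned use of normalised values. Another 1275 spots, at 0 on every array, were left out. Intensities were estimated from the whole-number ratios. Ratios were normalised by print-tip loess (limma 3.58.1, R 4.3.3, span 0.3, 4 iterations, 48 blocks of 480 spots). Symbols came from the platform annotation, updated by Entrez identifier against the RefSeq table of GRCm38.p6 (15964 spots). Spots with the same symbol were averaged into 20218 features. Means of 6 arrays were set against 0 by lmFit and eBayes in limma, and tissue differences were contrasts over 18 arrays. P-values were adjusted over all features (Benjamini-Hochberg), with 0.05 as threshold. Errors are SD over 6 arrays, or SE for differences. The steps were tested on simulated data. A ratio gives its 2 whole numbers only up to a common factor. In the simulation that factor was exact for 74.8% (brain), 75.1% (kidney) and 74.5% (liver) of values. The root mean square error of the fitted log2 intensity there was 0.241, 0.228 and 0.231. The simulation took the fitted intensities as the truth, with less spread between arrays than the estimate assumed. The error that the percentiles of spot intensity carry in the real data is therefore not known. Depth does not apply to arrays, whose number limits the precision. Background signal is not given in the sources used here, so dim spots could not be called undetected.

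The members and lists were chosen with earlier results of these data known. Named were all members, genes of the other lists past the threshold with 1.5-fold and the same sign on 6 arrays (up to 8 per list and tissue), the 3 measured genes on each side of members past 1.5-fold, and Glo1 and Hc. Vipr1, Vipr2, Adcyap1r1, Ntsr1, Ntsr2, Mc3r, Crhr2, Cckbr, Atp7a and Uhmk1 were chosen after their values were seen. So were the marker genes and the neighbours given with a value. Alternatives were no loess, whole-array loess, unrestored intensity, equal spread of arrays, the brightest spot of a gene, a robust variance trend, dim and saturated features left out, 1 fit of all arrays, a replicate block and leaving out each array. Replicate numbers name hybridisations, and the labels do not say that they mark a shared batch. Same-numbered arrays of different tissues correlated by -0.23 to 0.16 after removal of the tissue means. Differently numbered arrays were not correlated in this way, so these values cannot decide whether the numbers pair.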

Additional observations from a re-analysis of the deposited data

Results flagged for a closer look

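In groups of 6 arrays, 1 array stood apart from the others for 6 combinations of member and tissue. Chance alone marks about 1 group in 20, and 90 groups were examined. In brain these were Chgb on replicate 6 (1.33, others -0.12 to 0.07), Scg5 on replicate 1 (-0.09, others 1.14 to 1.65) and Hcrt on replicate 2 (-0.31, others 0.07 to 0.13). Outside brain they were Vip in kidney on replicate 3 (0.41, others -0.24 to -0.04), Cck in liver on replicate 5 (0.28, others -0.16 to -0.03) and Gal in liver on replicate 5 (-0.77, others -0.60 to -0.51).

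The strain ratio differed between tissues in 20 comparisons of members (limma contrasts). Brain minus kidney gave 1.07 for Vip, 0.64 for Npy, 0.36 for Penk, 0.40 for Pdyn, 0.39 for Cartpt, -0.74 for Nts, 0.53 for Pmch, 0.61 for Pam, 0.78 for Pcsk1 and 0.63 for Scg3. Brain minus liver gave 1.08 for Vip, 0.72 for Npy, 0.40 for Tac2, 0.60 for Gal, -0.94 for Nts and 1.81 for Pam. Kidney minus liver gave 0.66 for Gal, 1.19 for Pam, -0.79 for Pcsk1 and -0.37 for Scg3.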

How the results depend on the processing

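Every alternative run kept the calls of Pam, Scg5 and Vip in brain, of Pam, Pcsk1 and Scg3 in kidney, and of Tac2, Gal, Adcyap1, Pam and Scg5 in liver, where a value could be had. Members dropped as dim or saturated have none under that filter. Without loess the kidney had 13113 features and 21 members past the threshold, brain minus kidney 7113 and 23, kidney minus liver 9288 and 22, and brain minus liver 830 features. There the kidney ratios of Tac2 (0.12), Avp (-0.30), Adcyap1 (-0.21), Nmb (0.61) and Cpe (0.38) changed sign, as did Adcyap1 in brain minus kidney (0.60) and Nts (0.67), Cpe (0.43) and Scg5 (-0.70) in kidney minus liver. The cause was not tested. Whole-array loess gave 5 members in brain and 858 features in brain minus liver, and unrestored intensity gave 774 features there and 7 members in kidney minus liver. Without dim and saturated features 8 members passed in kidney and 4 in liver, of fewer members tested. Leaving out 1 array gave 1322 (without brain replicate 4) to 3344 features and 3 to 9 members in brain, 9 to 13 members in kidney, and 2976 (without liver replicate 3) to 4637 features and 6 to 9 members in liver. In the differences, 8 to 11, 5 to 8 and 3 to 4 members passed, not always those of the fit with all arrays. With the replicate number as a block, brain minus kidney had 3765 features and 10 members, brain minus liver 1351 and 6, and kidney minus liver 2983 and 3. The block ended the calls of Tac2 in brain minus liver (adjusted p = 0.0755) and Scg3 in kidney minus liver (adjusted p = 0.0509), and brought in Scg5 in brain minus liver (adjusted p = 0.0463). Whether the numbers pair the arrays is not known. Each member rests on 1 spot whose sequence was not used here, and the spots at the bottom of the intensity range limit what the liver ratio of Pam and the kidney and liver ratios of Scg5 and Scg3 can show.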
